A study of Mus musculus with 12 samples.

Results

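Interferon-stimulated genes and the genes of interferon signalling were followed in prefrontal cortex of male C57BL/6J mice, an inbred laboratory strain of wild-type genotype. The 47 genes were chosen by name, and the choice drew on values of these same libraries, in which many of them were lower after adolescent cocaine. All 47 had a row in the deposited table of 28842 genes. Of these, 42 had a mean of at least 10 normalised reads over all libraries and entered the model, while Zbp1, Oas1b, Oas2, Oas3 and Mx1 stayed below it and are given as values and differences alone. Because the contrast of cocaine with saline selected the genes, their differences in it are given as a description, with no test of the genes as a group.

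Both groups had 6 libraries. The saline group received saline from postnatal day 28 to 42, and the cocaine group received 15 mg/kg cocaine over the same days. In both groups a pre-test followed on day 75, then 1 mg/kg cocaine ahead of each training session on days 76 and 77, and the test with tissue collection on day 78, so the saline group is not free of cocaine either. The behaviour tested was conditioned place preference, the time an animal spends where it earlier received a drug. The series' title names the phosphatase gene Dusp1 of the medial prefrontal cortex and sensitivity to the drug in adulthood as its subject. No label says that each library came from its own mouse, so errors measure the spread between libraries. The labels also name a mesenchymal stem cell line, C3H 10T1/2, and tag the libraries as day 0 (replicates 1, 3 and 5) or day 5 (replicates 2, 4 and 6), neither of which describes this tissue. Slc17a7, the vesicular glutamate transporter of cortical excitatory neurons, stood at 28239 to 39790 normalised reads in every library. Of 5 genes listed for that cell line, Twist1 was lowest, at 1.05 to 13.9, and Col3a1 stood at 12.9 to 46.4. Prrx1 stood at 63.0 to 125, Col1a1 at 63.7 to 130, and Thy1, which neurons also express, at 11388 to 17547.

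Depth was similar throughout, at 16714249 to 19887591 recovered reads a library. One library stood apart: saline replicate 5 held 11208 normalised reads of Ttr, the transthyretin gene made by choroid plexus, against at most 13.2 in any other library. Its summed level of 9 choroid plexus and ependyma markers was 12029, most of it Ttr, against 87.4 to 483 elsewhere. The other markers of that list were also highest there, some by little, except Foxj1, at 273 against 284 in saline replicate 1. Differences are therefore given with and without saline replicate 5 for the whole set and for many single genes. Where a single difference or median is given, it includes that library.

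Type I interferons bind a receptor built from IFNAR1 and IFNAR2, which activates the kinases JAK1 and TYK2. These phosphorylate STAT factors, among them STAT2, which acts with IRF9 in a complex that binds the interferon-stimulated response element, or ISRE, in the promoters of its target genes. The targets restrict viruses and also tune the pathway itself, and in the brain microglia, vascular cells, astrocytes and neurons can all express them at a low resting level. Of 19 genes of the interferons themselves that were looked up by name, 0 had a row in the deposited table, so they could not be analysed.

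The promoters of several of these genes carry the response element close to the start, and it is shown here as a feature outside their read counts. Since the genes were chosen by name as interferon-responsive, its frequency among them is a description. RefSeq promoter windows on GRCm38.p6, running from 250 bases before to 50 after each start, were found for 35 of the 47 genes and not for the other 12. The ISRE core was searched as GAAANNGAAA, which reads TTTCNNTTTC from the opposite strand. The stretches below are written 5′ to 3′ on the strand of the gene. Capitals mark matches on either strand that lie wholly within the stretch shown.
Isg15 (chr4:156200850-156200909, minus strand): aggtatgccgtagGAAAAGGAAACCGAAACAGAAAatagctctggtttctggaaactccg
Rsad2 (chr12:26456538-26456597, minus strand): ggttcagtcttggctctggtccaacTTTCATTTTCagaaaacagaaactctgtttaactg
Gbp3 (chr3:142559980-142560039, plus strand): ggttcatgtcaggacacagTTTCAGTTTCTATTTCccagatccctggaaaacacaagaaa
Gbp2 (chr3:142620579-142620638, plus strand): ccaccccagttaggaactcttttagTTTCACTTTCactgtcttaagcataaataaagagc
Ifit1 (chr19:34640779-34640838, plus strand): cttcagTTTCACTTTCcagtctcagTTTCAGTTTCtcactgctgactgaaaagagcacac
Ifit3 (chr19:34583382-34583441, plus strand): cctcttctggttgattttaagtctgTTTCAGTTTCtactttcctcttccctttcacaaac
Ifit3b (chr19:34607778-34607837, plus strand): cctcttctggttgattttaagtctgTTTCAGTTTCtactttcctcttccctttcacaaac
Bst2 (chr8:71537562-71537621, minus strand): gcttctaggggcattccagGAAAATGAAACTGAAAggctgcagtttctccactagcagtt
Within the stretches shown, Isg15, Gbp3 and Bst2 held matches that ran into one another, and Ifit1 held a pair of separate matches. The whole windows of Ifit3 and Ifit3b held 2 matches each, not all of which lie within the stretches shown. Ifit3 and Ifit3b, both on chromosome 19 with Ifit1bl1 between them, had the same base at all 60 of 60 positions of the stretch shown. A match is a description of letters and does not show that a factor bound there.

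At least 1 ISRE core lay in the window of 18 of 35 genes (51.4%), compared with 1079 of 27025 genes with a window in the whole RefSeq table (3.99%). In its stricter form, with a C following the core, the element was found for 15 of 35 genes (42.9%) and for 0.944% of all genes. The gamma-activated site core TTCNNNGAA, an element of interferon gamma responses, was found on either strand for 10 of 35 genes (28.6%) and for 9.55% of all genes. These cores can overlap each other, and were counted separately. The median log2 difference of cocaine minus saline was -0.54 over the 18 genes with an ISRE core and -0.12 over the 17 with a window but no core. Without saline replicate 5 these medians were -0.47 and -0.13. The group without a core held the receptors, kinases and most of the IRF factors, but also Oasl2, Samd9l, Irf7 and Ifi44. A split by the gamma-activated site gave medians of -0.37 with and -0.33 without. The 12 genes with no window had a median of -0.27.

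**Figure D1:**
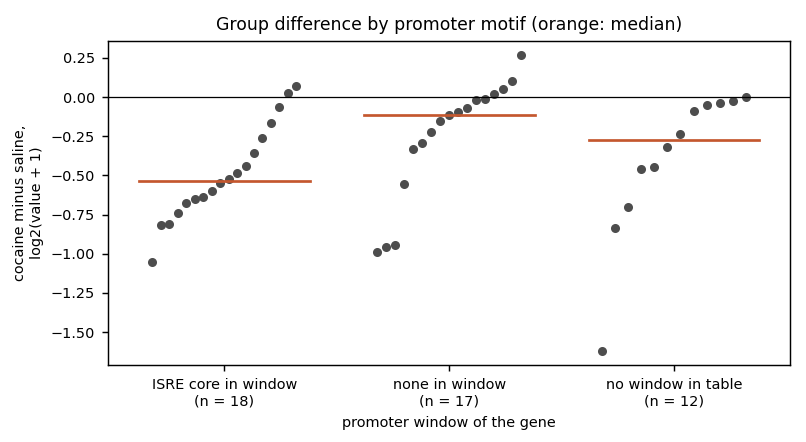
Log2 difference of cocaine minus saline for each of the 47 genes, grouped by whether the RefSeq promoter window held an ISRE core, held none, or was missing; each point is 1 gene and each orange line a group median. The 18 genes with a core centre on -0.54, the 17 without one on -0.12 and the 12 without a window on -0.27, and the ranges of the groups overlap.

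Across the whole set, cocaine libraries held lower levels than saline libraries for 41 of 47 genes and higher levels for 6, with a median log2 difference of -0.32 and a range from -1.62 to 0.27. Without saline replicate 5 the difference was below 0 for 37 genes and above 0 for 10, and the median was -0.25. Of the 47 genes, 20 had a mean of at least 1 FPKM (reads scaled to gene length and library size) and 27 lay under it. Over those 20 the median was -0.14, with 16 lower. Within the libraries tagged day 0 the median of the set was -0.40, and within those tagged day 5 it was -0.20. Over all 16067 genes in the model 48.4% were lower in cocaine, and the median was 0.00 with quartiles of -0.07 and 0.07. That share covers fitted genes only, and of the 42 fitted genes of the set 36 were lower. The difference of -1.62 belongs to Zbp1, which was not fitted. Of the 42 fitted genes, 14 were lower at an unadjusted p under 0.05 and 0 were higher, beside 0.79% lower and 0.703% higher over all genes tested, and nothing is read from that comparison because the same contrast chose the genes. With saline replicate 5 left out, 10 were lower at that level, beside 0.916% of all genes. The count was 10 without saline replicate 1, 4 without saline replicates 1 and 5 together, and 20 without saline replicate 2. It was 3 within the libraries tagged day 5, and 11 within those tagged day 0. No gene of the table, in the set or outside it, passed an adjusted p of 0.05 by limma with Benjamini-Hochberg adjustment, so 0 of 42 were called and 0% of all genes. At an unadjusted p under 0.05 limma counted 240 genes in the table. By edgeR's quasi-likelihood test 0 genes passed the adjusted threshold, and by DESeq2 3 did, Nr4a1, Arc and Dusp1, none of which belongs to the set.

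Every one of the 47 genes had overlapping groups, in that no gene had all its cocaine libraries below all its saline libraries. Over the 16067 genes in the model that pattern occurred for 5, or 0.0311% (Irak1, Epc1, 5930430L01Rik, Anxa9 and Il15, named after their values were seen). For 8 of the 47 genes 5 of the 6 saline libraries lay above the highest cocaine library. Of the 42 fitted genes 7 had at least 5 saline libraries there, beside 54 of all 16067 genes in the model (0.336%), and nothing is read from that share because the same contrast chose the genes. The 8 genes were Zbp1, Oas1a, Oasl2, Ifit1, Gbp3, Gbp7, Rsad2 and Samd9l. In all 8 the remaining saline library was saline replicate 2, which lay within the range of the cocaine libraries for 6 of them and below every cocaine library for Zbp1 and Ifit1. For Zbp1 it held 1 read, as did cocaine replicates 1, 3 and 4, so only the size factors set them apart.

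**Figure D2:**
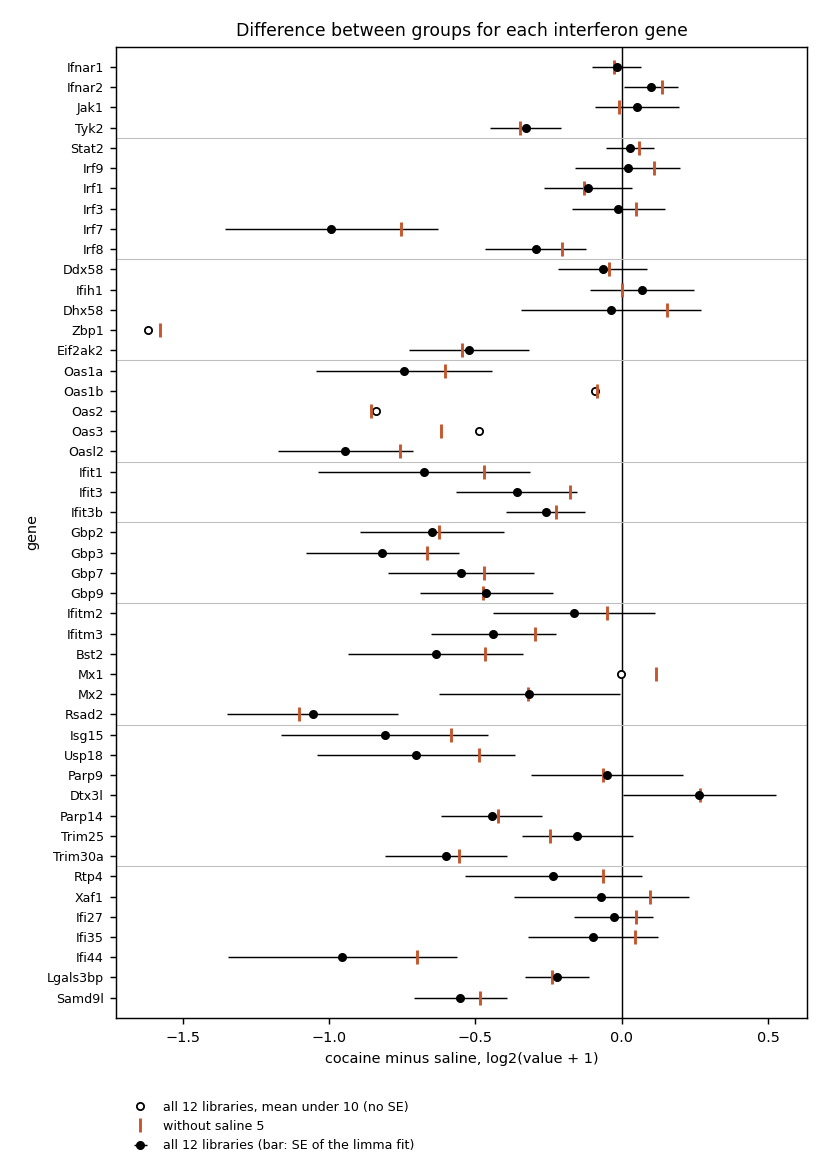
Log2 difference of cocaine minus saline for the 47 genes ordered by role, with 1 standard error on each side where the gene was fitted and a second marker for the difference without saline replicate 5. Most points lie below 0, with Zbp1 at -1.62 and Rsad2 at -1.06 farthest, while Ifnar1, Ifnar2 and Jak1 lie between -0.02 and 0.10 and Tyk2 at -0.33.

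The receptor and kinase genes, which take the signal from outside the cell, differed little between groups, apart from Tyk2. Of the 4, 2 were lower and 2 higher in cocaine, and the median log2 difference was 0.02. Ifnar1, encoding the first receptor chain, ranged from 768 to 931 normalised reads in saline (median 831) and from 709 to 929 in cocaine (median 831), a difference of -0.02 ± 0.09 (log2, SE). Ifnar2, encoding the other chain, ranged from 189 to 238 in saline (median 210) and from 197 to 253 in cocaine (median 227), a difference of 0.10 ± 0.09. Jak1, the kinase shared by many cytokine receptors and the most abundant gene of the set per length at 24.5 FPKM, had saline libraries from 2349 to 3953 (median 3032) and cocaine libraries from 2648 to 3792 (median 3172). Its difference was 0.05 ± 0.14, and -0.01 without saline replicate 5. Tyk2, the kinase that pairs with IFNAR1, was the exception in the group: saline libraries held 267 to 349 reads (median 290) and cocaine libraries 180 to 287 (median 250). Its difference was -0.33 ± 0.12, and -0.35 without saline replicate 5, and 3 saline libraries lay above every cocaine library. Of the 6865 exon bases of Tyk2, 554 are shared with 1700084C06Rik, and the strand setting of the count is not given in the sources used here.

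Among the transcription factors the median difference was -0.06, and 4 of 6 were lower. Stat2, a factor of that complex, held 371 to 453 reads in saline (median 405) and 384 to 459 in cocaine (median 411), a difference of 0.03 ± 0.08, or 0.06 without saline replicate 5. Irf9, its DNA-binding partner, had a difference of 0.02 ± 0.18, or 0.11 without saline replicate 5, and shares 123 exon bases with Rnf31. Irf3, which switches on interferon genes after viral sensing, held 189 to 310 reads in saline (median 255) and 197 to 343 in cocaine (median 241), a difference of -0.01 ± 0.16, or 0.05 without saline replicate 5. Irf1, a factor induced mainly by interferon gamma, differed by -0.12 ± 0.15. With all libraries none of these 4 differences exceeded its standard error.

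Irf7 had the largest difference of the factors. It encodes the factor that interferon itself induces and that amplifies interferon production. Saline libraries held 34.2 to 137 reads (median 54.0) and cocaine libraries 13.6 to 55.6 (median 28.5), with means of 66.9 ± 39.0 and 32.1 ± 14.8 (SD, n = 6 each). The difference was -0.99 ± 0.36, and -0.75 without saline replicate 5, which held the highest value. Irf8, a factor of microglia and other myeloid cells, held 68.3 to 133 reads in saline (median 101) and 63.3 to 94.4 in cocaine (median 80.1). Its difference was -0.29 ± 0.17, and -0.21 without saline replicate 5. With all libraries, 3 saline libraries lay above every cocaine library.

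The sensors of foreign nucleic acid had a median difference of -0.06, with 4 of 5 lower. Ifih1, encoding the RNA helicase MDA5, held 62.7 to 110 reads in saline (median 76.2) and 63.4 to 107 in cocaine (median 87.5), a difference of 0.07 ± 0.18 that came to -0.00 without saline replicate 5. Ddx58, encoding the helicase RIG-I, differed by -0.06 ± 0.15, and Dhx58, encoding the related helicase LGP2, by -0.04 ± 0.31, or 0.15 without saline replicate 5. Eif2ak2, the kinase PKR that stops translation on sensing double-stranded RNA, held 48.3 to 73.6 reads in saline (median 53.3) and 25.7 to 60.3 in cocaine (median 39.3). Its difference was -0.52 ± 0.21, and -0.55 without saline replicate 5. Zbp1, a sensor of Z-form nucleic acid that can trigger cell death, was near the limit of counting. It held 0.899 to 13.7 reads in saline (median 8.20) and 0.988 to 3.15 in cocaine (median 1.43). Its difference of -1.62 was the lowest of the set and rests on few reads, and saline replicate 2 held the 0.899.

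**Figure D3:**
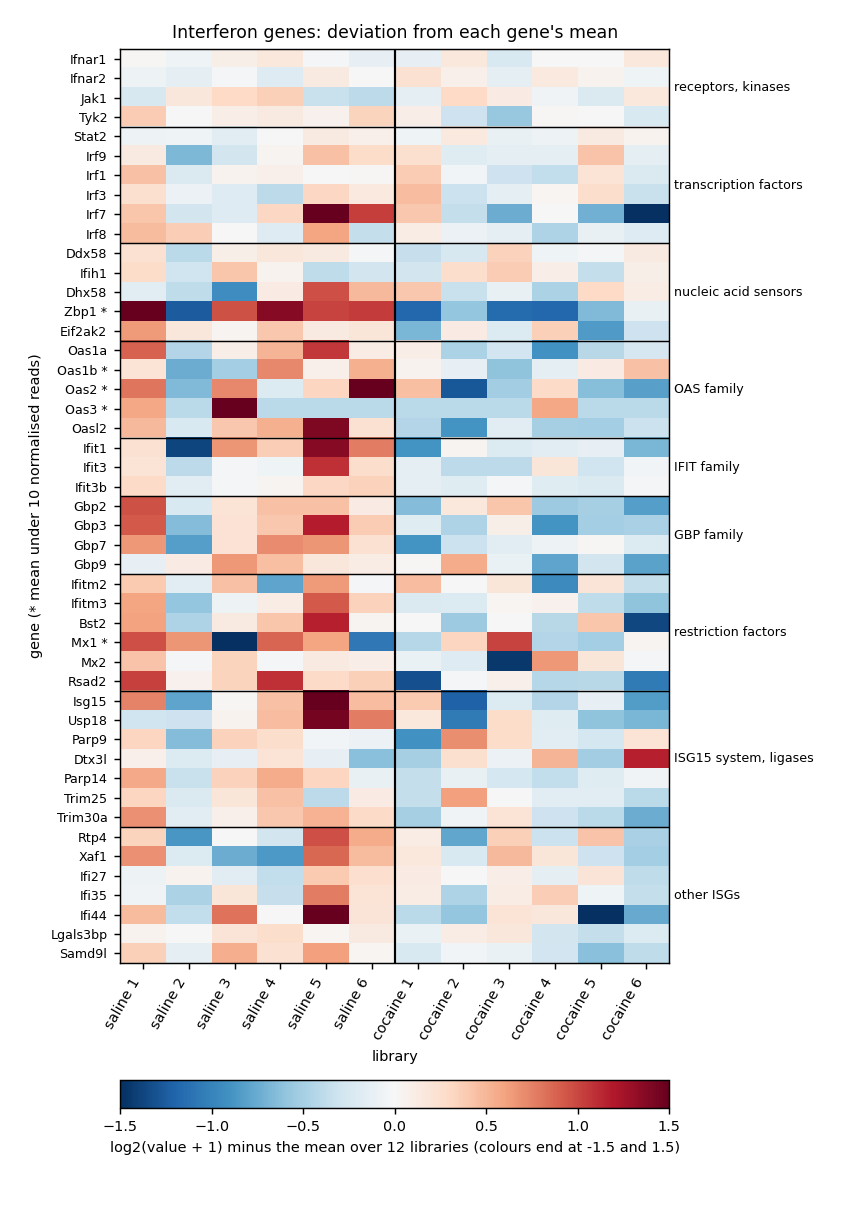
Log2(value + 1) of each of the 47 genes in each of the 12 libraries, as the deviation from the mean of the gene over all libraries (red higher, blue lower); rows are genes ordered by role and columns are libraries by group and replicate. Saline replicates 1 and 5 carry the highest values for many genes, and saline replicate 2 lies below the mean for most genes.

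Oligoadenylate synthetases make a messenger that activates RNase L to degrade RNA. The 5 genes of this family in the set were all lower in cocaine, with a median of -0.74 and of -0.62 without saline replicate 5. Of family members outside the set, Oas1c differed by 0.17 ± 0.22 (0.23 without saline replicate 5). Oasl1 and Oas1g, both below the minimum level, differed by 0.05 and -0.17 (0.25 and 0.03 without saline replicate 5). Oasl2, an OAS-like protein that also carries ubiquitin-like domains, lies on chromosome 5 at positions 114896936 to 114912234 on GRCm38. Saline libraries held 36.0 to 113 reads (median 57.9) and cocaine libraries 22.2 to 37.7 (median 30.2), with means of 62.8 ± 26.5 and 30.5 ± 5.14 (SD, n = 6 each). All saline libraries other than replicate 2 lay above the highest cocaine library, and the highest was saline replicate 5. The difference was -0.94 ± 0.23, and -0.76 without that library. In the authors' deposited table Oasl2 had the smallest p of the set, 8.93e-05, with a log2 fold change of -1.04 and an adjusted p of 0.644.

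Oas1a, a synthetase proper, held 7.19 to 22.3 reads in saline (median 13) and 4.94 to 10.9 in cocaine (median 7.75), a difference of -0.74 ± 0.30. That difference was -0.61 with saline replicate 5 left out. In Oas1a 57.6% of 50-base stretches also occur in its near copy Oas1g, so reads could be split between them, and the value is uncertain. Oas2 held 3.60 to 20.3 reads in saline and 2.02 to 8.94 in cocaine, a difference of -0.84. Oas1b held 3.60 to 11.7 and 4.07 to 9.45, a difference of -0.09. Oas3 was at 0 in most libraries, with at most 6.59 reads in saline and 0.988 in cocaine.

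The IFIT genes encode proteins that bind viral RNA and block its translation, and those in the set lie on chromosome 19 between 34583531 and 34650009. The 3 in the set were lower in cocaine, with a median of -0.36, or -0.23 without saline replicate 5. The family was not uniform: Ifit1bl1, which lies between Ifit3 and Ifit1, was higher in cocaine by 0.35 ± 0.16, and the neighbouring Ifit2 differed by -0.02 ± 0.13. Ifit1 held 12.6 to 90.1 reads in saline (median 49.8) and 17.9 to 35.3 in cocaine (median 30.1), and 5 saline libraries lay above every cocaine library while saline replicate 2 lay below them all. Its difference was -0.68 ± 0.36, and -0.47 without saline replicate 5. Ifit3 held 78.2 to 222 reads in saline (median 110) and 78.4 to 118 in cocaine (median 88.5), a difference of -0.36 ± 0.21 that was -0.18 without saline replicate 5, the library with 222. Ifit3b held 44.9 to 64.6 and 43.2 to 49.9, a difference of -0.26 ± 0.13. As 51.2% of the 50-base stretches of Ifit3 also occur in Ifit3b, the split of reads between them is uncertain.

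Guanylate-binding proteins are large GTPases that attack the membranes around intracellular pathogens. The 4 of their genes in the set were all lower in cocaine, with a median of -0.60, and -0.55 without saline replicate 5. Gbp3 held 45.8 to 165 reads in saline (median 95.8) and 38.5 to 77.4 in cocaine (median 51.9), with means of 104 ± 41.9 and 55.6 ± 13.3 (SD, n = 6 each). Its difference was -0.82 ± 0.26, and -0.67 without saline replicate 5. Gbp2, its neighbour on chromosome 3, held 32.4 to 74.5 reads in saline (median 47.8) and 21 to 50.9 in cocaine (median 26.2), a difference of -0.65 ± 0.25. Gbp7, also in that cluster, held 32.4 to 95.6 and 30.8 to 58.8, a difference of -0.55 ± 0.25. Gbp9, on chromosome 5, differed by -0.46 ± 0.23. With saline replicate 5 left out, the differences of Gbp2, Gbp7 and Gbp9 were -0.63, -0.47 and -0.47. Outside the set, Gbp4 differed by -0.95 ± 0.38 and Gbp5 by -0.34 ± 0.24. The stretches printed above for Gbp2 and Gbp3 come from separate promoters of that cluster.

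**Figure D4:**
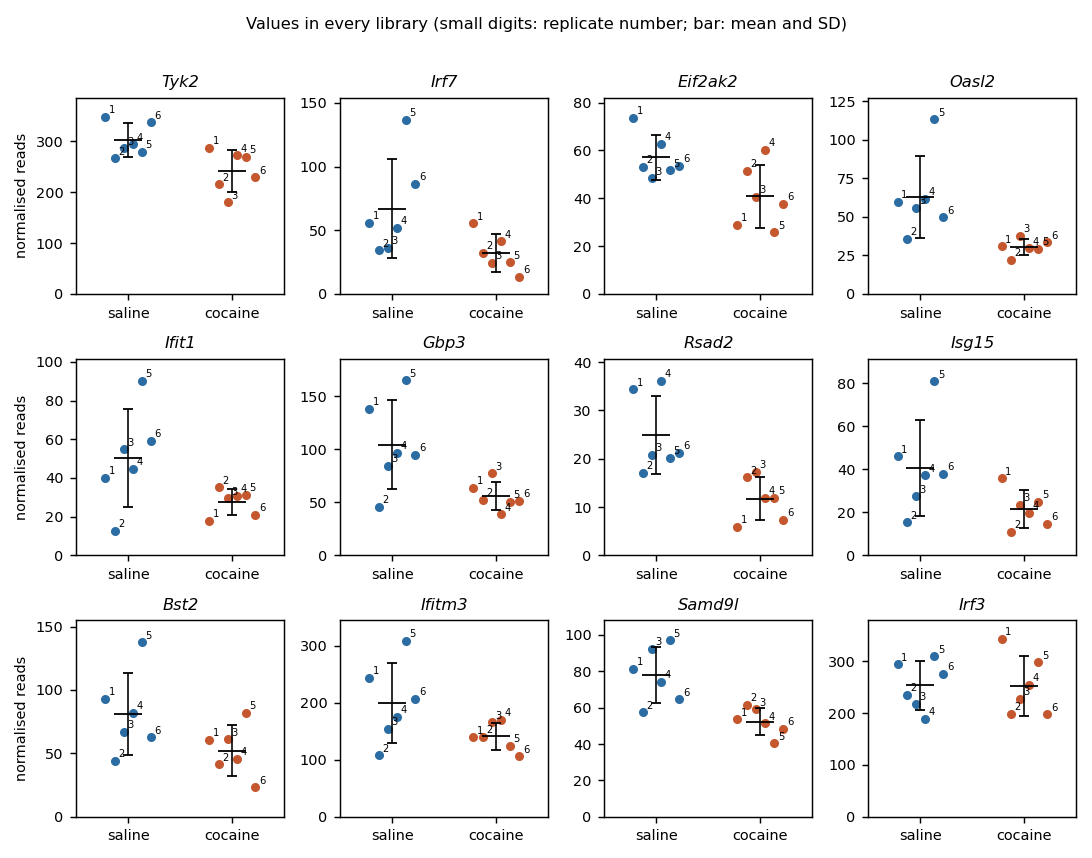
Normalised reads in every library for 12 genes, 1 panel a gene with its own linear axis from 0; points are libraries with their replicate number, and black bars give the mean and SD of the 6 libraries. Cocaine points of Oasl2 sit between 22.2 and 37.7 and those of Rsad2 between 5.96 and 17.3, below most saline points, while those of Irf3 (197 to 343) overlap the saline points throughout.

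The membrane and restriction factors were lower for 6 of 6 genes, with a median of -0.38. Without saline replicate 5 it was 5 lower and 1 higher, Mx1, with a median of -0.31. Rsad2 encodes viperin, a radical enzyme that makes a chain-terminating nucleotide, and lies at 26442746 to 26456452 on chromosome 12. Saline libraries held 17.1 to 36.1 reads (median 21) and cocaine libraries 5.96 to 17.3 (median 11.9), with means of 25 ± 8.09 and 11.8 ± 4.54 (SD, n = 6 each). The groups met only at the edge: 5 saline libraries lay above every cocaine library and 5 cocaine libraries below every saline library. The difference was -1.06 ± 0.29, and -1.10 without saline replicate 5, so that library did not set it.

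Ifitm3, which keeps viruses from fusing with endosomes, was the most abundant of these per length at 14.3 FPKM. It held 108 to 309 reads in saline (median 191) and 106 to 170 in cocaine (median 140), a difference of -0.44 ± 0.21 that was -0.30 without saline replicate 5. Bst2, encoding tetherin, which holds budding virus at the cell surface, held 44.0 to 138 reads in saline (median 74.4) and 23.1 to 81.8 in cocaine (median 53.0), a difference of -0.64 ± 0.30. That difference was -0.47 with saline replicate 5 left out. Ifitm2 differed by -0.16 ± 0.28, or -0.05 without saline replicate 5, and 48.5% of its 50-base stretches occur in other genes. Mx2, a dynamin-like GTPase, differed by -0.32 ± 0.31. Mx1, which is defective in most inbred mouse strains, held at most 7.13 reads in any library and differed by -0.00, or 0.12 without saline replicate 5.

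The ISG15 system attaches a ubiquitin-like protein to other proteins and removes it again, and is grouped here with related PARP and TRIM proteins. Of 7 genes 6 were lower, with a median of -0.44 and of -0.42 without saline replicate 5. Isg15, the modifier itself, held 15.3 to 81.0 reads in saline (median 37.5) and 11.1 to 35.8 in cocaine (median 21.6), with means of 40.8 ± 22.3 and 21.6 ± 8.67 (SD, n = 6 each). Its difference was -0.81 ± 0.35, and -0.58 without saline replicate 5, and 4 saline libraries lay above every cocaine library. Usp18, the protease that removes ISG15 and also damps IFNAR2 signalling, held 12.6 to 44.5 reads in saline (median 19.4) and 7.05 to 19.3 in cocaine (median 12), a difference of -0.70 ± 0.34. That difference was -0.49 with saline replicate 5 left out.

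Trim30a, a negative regulator of innate signalling, held 24.3 to 44.1 reads in saline and 15.7 to 31.6 in cocaine, a difference of -0.60 ± 0.21. Parp14, a mono-ADP-ribosyltransferase, held 39.6 to 74.5 and 38.5 to 48.3, a difference of -0.44 ± 0.17. With saline replicate 5 left out, the differences of Trim30a and Parp14 were -0.56 and -0.42. Trim25, the ligase that acts on RIG-I, differed by -0.15 ± 0.19, or -0.25 without saline replicate 5. The partner proteins encoded by Parp9 and Dtx3l differed by -0.05 ± 0.26 and 0.27 ± 0.26, and the latter was the highest difference of the set, with a peak of 160 reads in cocaine replicate 6. These 2 genes share 458 exon bases on opposite strands, so their reads may not be fully separated.

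The other stimulated genes were lower for 7 of 7, with a median of -0.22. Without saline replicate 5 the median was -0.06, with 4 lower and 3 higher. Samd9l, which restrains translation and cell growth, was the clearest of them. It held 57.5 to 97.1 reads in saline (median 77.9) and 40.4 to 61.5 in cocaine (median 52.5), a difference of -0.55 ± 0.16, and -0.48 without saline replicate 5. Ifi44 was low, at 7.19 to 34.4 reads in saline (median 12.4) and 2.76 to 11.2 in cocaine (median 6.50), a difference of -0.95 ± 0.39, and -0.70 without saline replicate 5. Ifi27, one of the more abundant at 16.8 FPKM, held 330 to 562 reads in saline (median 425) and 330 to 491 in cocaine (median 444), a difference of -0.03 ± 0.13, or 0.05 without saline replicate 5. Lgals3bp, a secreted glycoprotein, differed by -0.22 ± 0.11, Rtp4 by -0.23 ± 0.30, Ifi35 by -0.10 ± 0.22 and Xaf1 by -0.07 ± 0.30. Rtp4, Ifi35 and Xaf1 came to -0.06, 0.05 and 0.09 without saline replicate 5.

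The genes also varied together from library to library. For each library the deviation of every gene from its mean over the 12 libraries was taken on the log2 scale, and the median over the 47 genes was used as that library's position. In saline this median ran from -0.23 to 0.43: it was -0.23 in replicate 2 and 0.09 to 0.43 in the other 5. In cocaine it ran from -0.31 to -0.10, so saline replicate 2 alone lay among the cocaine libraries. Nothing is read from that separation of the groups, because the same contrast chose the genes. Saline libraries were also more spread, with an SD of 0.24 against 0.08 in cocaine, a difference that was not tested. Nothing is read from this spread either, because the choice of genes drew on these same libraries. Of the 47 genes, 20 reached their highest value in saline replicate 5, 7 in saline replicate 1, 6 in saline replicate 4 and 0 in saline replicate 2. A cocaine library held the highest value for 9 genes, and saline replicate 2 held the lowest value for 9.

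**Figure D5:**
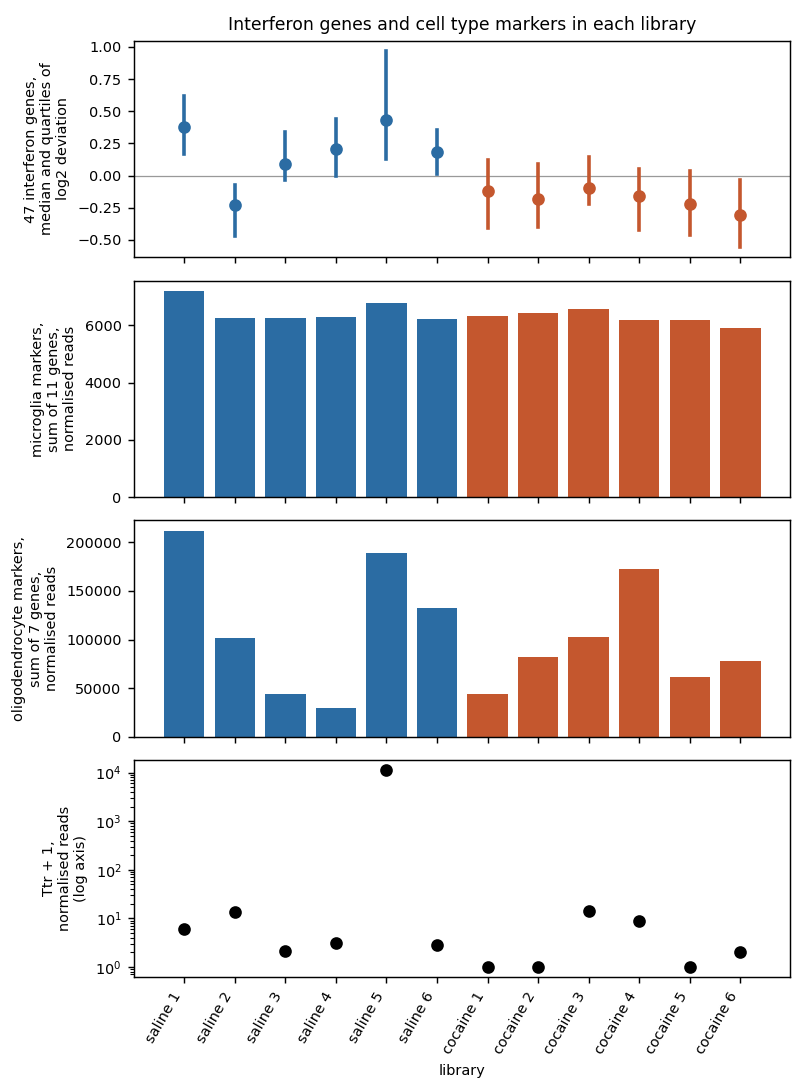
Median deviation of the 47 genes from their mean over the libraries (log2), with quartiles as vertical lines, for each of the 12 libraries, above the summed microglia and oligodendrocyte markers and Ttr (log axis) of the same libraries in normalised reads. Saline replicates 1 and 5 are highest at 0.38 and 0.43, saline replicate 2 lies at -0.23, and the cocaine libraries lie between -0.31 and -0.10.

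Once each group's mean was removed, the median Pearson correlation over pairs of the 42 fitted genes was 0.23 across the 12 libraries and 0.19 without saline replicate 5, against 0.01 between these genes and all genes in the model. All pairs share the same libraries, so this is a description without a test. The genes with the highest median correlation to the rest of the set were Gbp3 at 0.54, Irf9 at 0.47, and Isg15, Ifitm3 and Rtp4 at 0.46 each. With saline replicate 5 left out the order changed: Ifitm3 was highest at 0.46, followed by Gbp3 at 0.40, Rtp4 at 0.38 and Trim30a at 0.36. Isg15 then stood at 0.34 and Irf9 at 0.32. Jak1 had a median of -0.34, and of -0.20 without that library.

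Markers of cells that can carry interferon-stimulated transcripts were read in the same libraries, because in bulk tissue fewer cells of a type and less RNA per cell cannot be told apart. The sum of 11 microglia markers was 6223 to 7202 normalised reads in saline and 5891 to 6573 in cocaine, with 9 of the 11 lower in cocaine and 0 of them past the adjusted threshold. Over all genes in the model 48.4% were lower. Also lower were 7 of 7 oligodendrocyte, 4 of 4 oligodendrocyte precursor, and 9 of 9 choroid plexus and ependyma genes. So were 10 of 12 peripheral immune, 6 of 8 endothelial, 4 of 5 border macrophage and 4 of 6 astrocyte genes. Among mural cell and fibroblast genes 5 of 8 were lower, and among neuron genes 1 of 5 excitatory and 3 of 6 inhibitory. Saline replicates 1 and 5, which were highest for the interferon genes, also had the highest microglia sums, at 7202 and 6785. Saline replicate 2, lowest of its group for the interferon genes, had 6259, beside 6223 to 6289 in saline replicates 3, 4 and 6. Within cocaine, replicate 3 was highest and replicate 6 lowest for both, with microglia sums of 6573 and 5891. The same 2 cocaine libraries were highest and lowest for border macrophage markers (115 and 45.1) and red blood cell markers (2531 and 1317), so this order was not particular to microglia. Endothelial markers summed to 3798 to 4531 in saline and 3916 to 4342 in cocaine. Mural cell and fibroblast markers summed to 2351 to 2875 and 2076 to 3363, and astrocyte markers to 10187 to 13340 and 8312 to 13407. For excitatory neurons the sums were 66025 to 100283 and 70765 to 93986, and for inhibitory neurons 15030 to 19277 and 15026 to 17129. Markers of 12 peripheral immune genes summed to 30.6 to 93.4 in saline and 22.9 to 53.4 in cocaine, of which Cd3d and Ms4a1 stayed at or below 3 reads in every library. Border macrophage markers summed to 52.6 to 136 and 45.1 to 115. Oligodendrocyte markers ranged from 29363 in saline replicate 4 to 211720 in saline replicate 1, with 188811 in saline replicate 5 and 43902 to 172821 in cocaine. Red blood cell markers were higher in cocaine for 5 of 5 genes, with 0 past the adjusted threshold. They summed to 787 to 2717 in saline (median 1118) and 1317 to 2531 in cocaine (median 1773), and saline replicate 5 held the highest sum, the other saline libraries reaching at most 1439. The part of these cells in the interferon gene values was not tested.

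Pathway genes outside the set were taken from a list of 106 that was itself drawn up with earlier results of these data known, of which 83 were in the table and 68 were fitted. Of the 83, 67 were lower in cocaine and 16 higher, with a median of -0.14, and -0.11 without saline replicate 5. At an unadjusted p under 0.05, 8 of the 68 fitted genes were lower and 1 was higher, beside 0.79% lower and 0.703% higher over all genes tested, and 0 passed the adjusted threshold by limma. The lower ones all lay among 53 other stimulated genes, whose median was -0.24, whereas 7 other receptors, kinases and STATs had a median of -0.04, 4 other IRF genes 0.03, 11 sensing genes -0.06 and 8 negative regulators -0.06.

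Among the stimulated genes outside the set, Tap1, the peptide transporter of antigen presentation, held 47.2 to 83.0 normalised reads in saline (median 67.8) and 30.2 to 56.6 in cocaine (median 36.7), a difference of -0.72 ± 0.19, and -0.65 without saline replicate 5. Nlrc5, the transactivator of class I genes, held 8.09 to 30.5 in saline (median 26.9) and 3.02 to 14.7 in cocaine (median 9.11), a difference of -1.34 ± 0.38. That difference was -1.26 with saline replicate 5 left out. In the opposite direction, Ifit1bl1 held 53.5 to 94.5 in saline (median 56.3) and 72.4 to 94.7 in cocaine (median 78.8), a difference of 0.35 ± 0.16. Socs1, a feedback inhibitor of the Janus kinases, differed by 0.37 ± 0.28.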

How the data were processed

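RNA sequencing of prefrontal cortex gave 12 libraries, grouped by their treatment labels. Per the labels' protocols, total RNA from Trizol extraction went into Illumina TruSeq libraries. HISAT2 2.0.5 and the build hg38 are named in the submitters' processing notes, but all 47 genes have mouse IDs and lie in the file at their GENCODE M21 positions on GRCm38. Neither the counting tool nor its annotation or strand setting is given in the sources used here. The deposited values, which the authors' file names FPKM, are a signal, namely reads per gene over a size factor that is constant within a library. They are not divided by gene length, and every value came within 0.01 of a whole read when multiplied back. They are called normalised reads here. FPKM values given for single genes were computed from the recovered reads and the gene length in the deposited table. The authors' deposited table also holds log2 fold changes and p-values of their own comparison, quoted only where named. It held 25 gene names that a spreadsheet had turned into dates, which were restored by gene ID.

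Values were tested as log2(value + 1) with limma 3.58.1 (R 4.3.3, empirical Bayes with an intensity trend, two-sided) over genes with a mean of at least 10, with Benjamini-Hochberg adjustment at 0.05. Fold changes on that scale understate the change of low genes. The fit was checked on simulated data. The genes, the pathway and marker lists and the naming rule were chosen with earlier results of these data known. The rule for genes given with values named, in each role, the gene of highest FPKM and the 2 largest differences among fitted genes, and of the pathway list the 2 smallest p-values in each direction; a gene that it also named is not reported here, and further genes were added to describe each role. Alternatives were other pseudocounts, filters and scalings, no trend, a replicate block, the time tag as a covariate, leaving out each library, edgeR 4.0.16 and DESeq2 1.42.0 on recovered reads. Fits within each time tag and without saline replicates 1 and 5 were added after seeing the data.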

Additional observations from a re-analysis of the deposited data

Results flagged for a closer look

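Among 84 groups of 6 libraries (42 fitted genes in each treatment group), 3 held a library far from the others of its group, where chance alone flags about 1 in 20 groups. In saline, Oasl2 stood at 113.3 normalised reads in replicate 5, against 36.0 to 61.6 in the other saline libraries. Ifit3 stood at 221.6 in that same library, against 78.2 to 124.6. In cocaine, Trim25 stood at 142.1 in replicate 2, against 69.3 to 92.6.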

How the results depend on the processing

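The median difference of the 47 genes stayed below 0 in every alternative run, and 0 of these genes passed the adjusted threshold in any. Requiring at least 1 FPKM left 20 genes, of which 16 were lower, with a median of -0.14 and 3 at an unadjusted p under 0.05, and 149 genes at that level in the table; with no filter the table held 715. DESeq2 gave 428 such genes and 3 adjusted calls, none in the set. In libraries tagged day 0 alone there were 399 such genes and 1 adjusted call, Gapdh, and the set's median was -0.40. In those tagged day 5 alone the median was -0.20 and 3 of the set were lower at that level. Without saline replicates 1 and 5 together it was -0.21, with 4. Leaving out 1 library at a time, 37 to 41 of the set were lower, the median ran from -0.36 to -0.25, the set's count at an unadjusted p under 0.05 from 10 (without saline replicate 1 or 5) to 20 (without saline replicate 2), and that of the table from 192 to 295. Replicate numbers did not pair the libraries: same-numbered libraries correlated at -0.34 to 0.33. With a replicate block 41 of the set were lower, 14 at an unadjusted p under 0.05, and 0 genes passed adjustment. Among named genes the sign turned under some settings for Jak1 (4 of 26), Irf3 (8 of 26), Ifih1 (3 of 25) and Ifi27 (5 of 26). Genes with a mean under 10 reads have differences without an error.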
